A study of Mus musculus with 10 samples.

Results

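Liver RNA was examined for 9 genes of glycogen synthesis and breakdown, taken by symbol from a deposited table of 19764 genes and all 9 found there. They were the synthesis enzymes Ugp2, Gys2 and Gbe1, the glycogen phosphorylase Pygl, the phosphorylase kinase subunits Phka2 and Phkg2, and the glycogen-targeting subunits of protein phosphatase 1 Ppp1r3b, Ppp1r3c and Ppp1r3g. Each of the 2 groups had 5 libraries from whole liver of female mice that had fasted for 8 h from ZT12, when mice become active. GRMAC mice carried the floxed glucocorticoid receptor gene and LysM-Cre+/-, a recombinase expressed from a myeloid promoter. GRflox littermates carried the floxed gene without Cre, so both groups had the floxed allele and effects of Cre and of receptor loss cannot be told apart. Ages, and whether each library came from a different mouse, were not given in the sources used here, so p-values measure the spread between these libraries. Polyadenylated RNA was sequenced, and levels are given as CPM, counts scaled to a common library total, with TMM factors between libraries.

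Glycogen is the branched glucose store of the liver. UDP-glucose made by Ugp2 is added to the chain by glycogen synthase, of which Gys2 is the liver form, and Gbe1 adds the branches. Pygl, the liver phosphorylase, takes glucose units off the chain when phosphorylase kinase has activated it in response to glucagon or adrenaline. Subunits of the Ppp1r3 family bring protein phosphatase 1 to glycogen, where it activates the synthase and inactivates the phosphorylase. Glucocorticoids owe their name to effects on glucose, and deposition of liver glycogen is among the classical ones. LysM-Cre is not directed at hepatocytes, the cells that hold liver glycogen.

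None of the 9 genes passed the test between the genotypes, and the means of the synthase and phosphorylase genes lay close together. Gys2 was at 196.0 ± 31.4 CPM in GRflox livers and 187.0 ± 18.2 in GRMAC liver, and Pygl at 279.8 ± 13.9 and 275.8 ± 28.3 CPM (SD, n = 5). On the log2 scale the widest gap was that of Ppp1r3g, at 28.04 ± 10.8 CPM in GRflox livers and 15.95 ± 4.43 in GRMAC livers, which did not pass after adjustment over all genes (log2 fold change −0.81 ± 0.30 SE, adjusted p = 0.223, edgeR). The other targeting subunits had differences of the opposite sign, 0.40 ± 0.20 for Ppp1r3b and 0.38 ± 0.44 for Ppp1r3c on the log2 scale, and did not pass either.

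Over all 12558 genes tested with edgeR's quasi-likelihood test, 22 passed at an adjusted p under 0.05 (0.175%). Of the 9 glycogen genes, all of which were tested, 0 passed with edgeR, with DESeq2 (background 3.33%) and with limma-voom (background 0.0637%). At an unadjusted edgeR p under 0.05 there was 1 of the 9, Ppp1r3g, where the background was 16.3% in either direction and 7.75% for lower values in GRMAC. For none of the 9 did the CPM of the genotypes fail to overlap, which happened for 4.06% of tested genes. Log2 fold changes were positive for 4 and negative for 5, with a median of −0.0064, beside 0.0010 for all tested genes.

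Library totals were 25697931 to 27692528 counts in GRflox and 23258884 to 26116916 in GRMAC and differed between the genotypes (exact permutation test, two-sided, p = 0.0159). Nr3c1, the targeted receptor gene, was at 63.8 to 81.2 CPM in GRflox livers and 74.7 to 93.9 in GRMAC, which does not check a deletion confined to myeloid cells. Cd163, a macrophage scavenger receptor gene, was at 21.6 to 40.3 and 2.43 to 3.77 CPM. Hepatocyte markers were abundant in all libraries (9 of 9 tested, summed level 115100 to 133200 CPM in GRflox livers and 108700 to 134400 in GRMAC). Most of that sum was Alb, the albumin gene, at 99920 ± 7627 and 104000 ± 9027 CPM (SD, n = 5). Of the 9, only Tat, the tyrosine aminotransferase gene, had an unadjusted p under 0.05 (3176 ± 651.3 and 1716 ± 714.9 CPM, log2 fold change −0.89 ± 0.26, adjusted p = 0.149, edgeR). The background was 16.3% in either direction and 7.75% for lower values in GRMAC. For Tat 4 GRMAC libraries were below all GRflox libraries, and its part in the values of the glycogen genes was not tested. Skeletal muscle markers, of a tissue with its own glycogen enzymes, were near 0 (sum at most 0.195 and 0.215 CPM). In whole tissue, fewer cells of a type and less RNA per cell cannot be told apart.

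**Figure D1:**
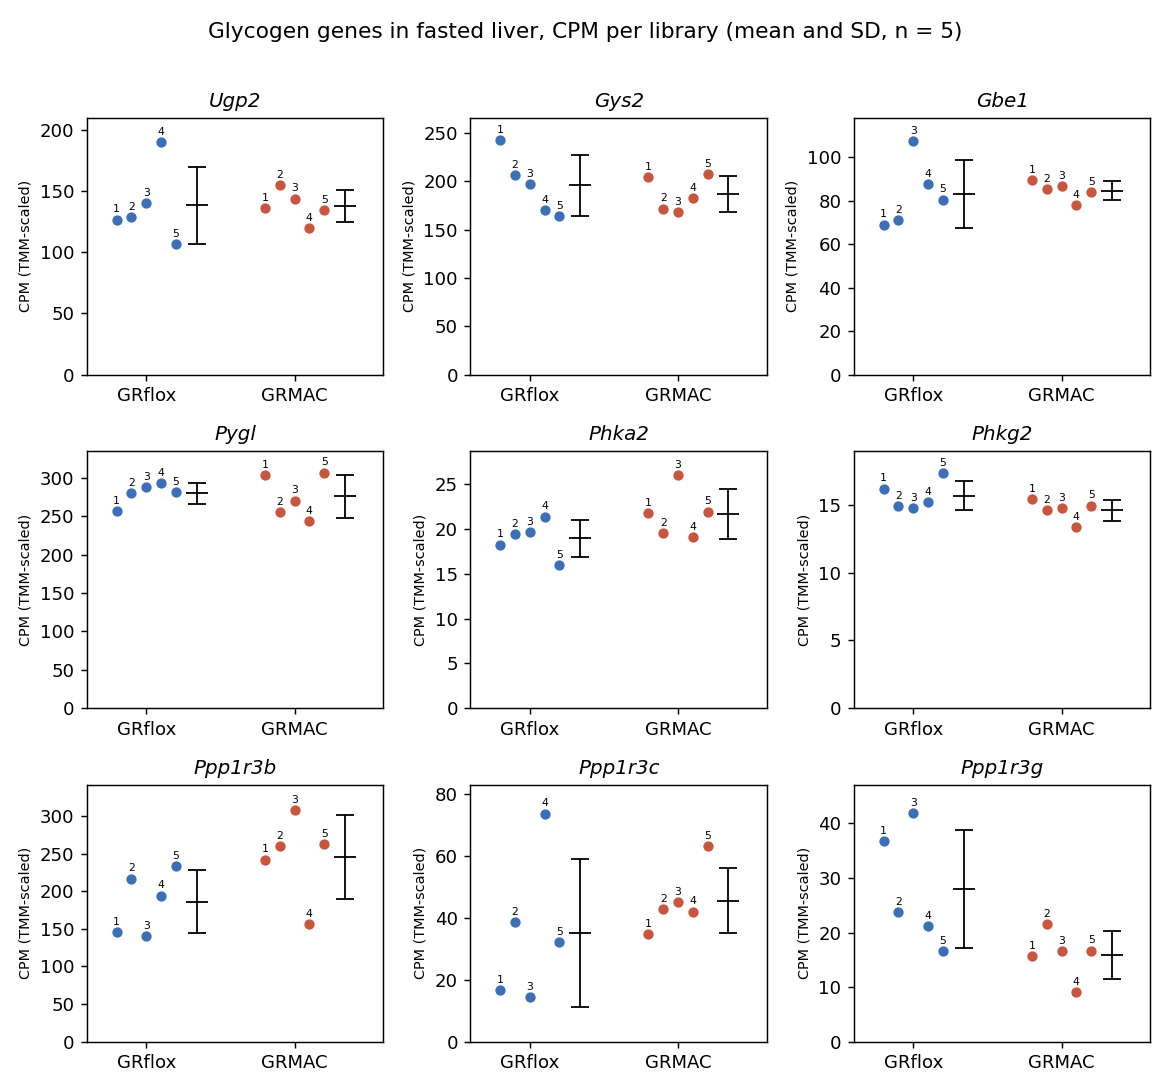
CPM of the 9 genes in each library (vertical axes, TMM-scaled and starting at 0) by genotype, with the replicate number above each point and the mean and SD (n = 5) to its right. The genotypes overlap in every panel, and Ppp1r3g reaches 36.8 and 41.9 CPM in GRflox 1 and GRflox 3 against 9.14 to 21.5 CPM in GRMAC.

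Among the synthesis genes, Gys2 (NM_145572, mm10 chromosome 6, 142422613 to 142473109, minus strand, 17 exons) was at 242.3, 206.7, 197.1, 169.9 and 164.2 CPM in GRflox 1 to 5 and at 204.3, 171.7, 168.2, 182.9 and 207.8 CPM in GRMAC 1 to 5. All GRMAC values lay within the range of the GRflox values, and GRflox 1 was the highest. Its log2 fold change was −0.07 ± 0.10 with a 95% interval from −0.29 to 0.15 (adjusted p = 0.785, edgeR; exact permutation test of CPM, p = 0.635). Ugp2 (chromosome 11, 21321126 to 21371267), which supplies the UDP-glucose, was at 126.9, 128.7, 140.7, 190.7 and 106.8 CPM in GRflox livers and 136.6, 155.2, 144.1, 119.8 and 134.9 in GRMAC. Here both the highest and the lowest library were GRflox, and the interval of the log2 fold change ran from −0.30 to 0.28. Without GRflox 4, the highest, that fold change went from −0.0064 to 0.14 (adjusted p = 0.454, edgeR).

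Gbe1, the branching enzyme gene (chromosome 16, 70313949 to 70569720), spanned 69.0 to 107.5 CPM in GRflox livers and 77.9 to 89.6 in GRMAC. The GRMAC libraries lay inside the GRflox range, with a SD of 4.38 CPM against 15.5 CPM in GRflox. A log2 fold change of 0.03 ± 0.10 was fitted (95% interval −0.20 to 0.25, adjusted p = 0.927, edgeR).

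Pygl, on the breakdown side (NM_133198, chromosome 12, 70190815 to 70227683, minus strand, 20 exons), was at 256.6, 280.2, 287.6, 293.0 and 281.5 CPM in GRflox livers and 303.3, 255.0, 270.3, 243.7 and 306.8 in GRMAC. The GRMAC libraries reached both above and below the GRflox ones. Its fold change had the narrowest interval of the 4 enzyme genes, −0.18 to 0.14 on the log2 scale (−0.02 ± 0.07, adjusted p = 0.919, edgeR; exact permutation test, p = 0.786).

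The ratio of synthase to phosphorylase RNA within a library does not depend on scaling between libraries. As the log2 of Gys2 CPM over Pygl CPM it was −0.08, −0.44, −0.55, −0.79 and −0.78 in GRflox and −0.57, −0.57, −0.68, −0.41 and −0.56 in GRMAC. The means were −0.53 ± 0.29 and −0.56 ± 0.10 (SD, n = 5), and the exact permutation test gave p = 0.810. GRflox libraries spanned the wider range, from GRflox 1, the highest of the 10, to GRflox 4, the lowest. Without GRflox 1 the difference went from −0.03 to 0.08.

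Phosphorylase kinase passes the hormonal signal on to the phosphorylase, and Phka2 and Phkg2 encode the liver forms of its regulatory alpha and catalytic gamma subunits. Phka2 (X chromosome, 160502434 to 160598878) was at 18.3, 19.5, 19.7, 21.4 and 15.9 CPM in GRflox livers and 21.8, 19.5, 26.1, 19.1 and 21.96 in GRMAC. In GRMAC 3 libraries were above the highest GRflox library, and the others lay among them. The log2 fold change was 0.19 ± 0.10 (95% interval −0.01 to 0.40, adjusted p = 0.336, edgeR). Phkg2 (chromosome 7, 127573348 to 127583307) was at 14.8 to 17.4 CPM in GRflox livers and 13.4 to 15.5 in GRMAC. These ranges overlapped, with −0.10 ± 0.07 on the log2 scale (95% interval −0.25 to 0.05, adjusted p = 0.501, edgeR). Exons of Phkg2 share 876 bases with Ccdc189 on the opposite strand, and the strand setting of the counting is not given in the sources used here, so reads of the pair cannot be told apart. Shared exonic bases were also found for Phka2 (115, with Gm15243) and Ugp2 (78, with Gm12043).

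The targeting subunits bring the phosphatase to glycogen, each under its own control. Ppp1r3g, whose protein is linked to glycogen build-up after a meal (NM_029628, chromosome 13, 35967906 to 35970388, plus strand), was at 36.8, 23.7, 41.9, 21.1 and 16.6 CPM in GRflox livers and at 15.7, 21.5, 16.7, 9.14 and 16.7 in GRMAC. Of the GRMAC libraries 2 lay below the lowest GRflox library, GRflox 5, and the other 3 lay between GRflox 5 and GRflox 2, well below GRflox 1 and GRflox 3. The fitted level was 1.76-fold lower in GRMAC, with a 95% interval from −1.49 to −0.14 on the log2 scale before adjustment (unadjusted p = 0.0234, edgeR; exact permutation test of CPM, p = 0.0556). It was −0.82 in the authors' deposited table (adjusted p = 0.118). Leaving out 1 library at a time gave −0.95 to −0.62, with adjusted p from 0.205 to 0.368 (edgeR).

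Ppp1r3b, which encodes the main hepatic glycogen-targeting subunit (NM_177741, chromosome 8, 35375741 to 35388137), was at 145.2, 216.8, 140.4, 194.2 and 233.2 CPM in GRflox livers and 242.0, 259.6, 307.9, 156.0 and 262.3 in GRMAC. In GRMAC 4 libraries were above the highest GRflox library, and GRMAC 4 lay near the bottom of the GRflox range. The log2 fold change was 0.40 ± 0.20 (95% interval −0.03 to 0.84, adjusted p = 0.34, edgeR; exact permutation test, p = 0.0873), and without GRMAC 4 it was 0.53 (adjusted p = 0.154, edgeR).

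Ppp1r3c, also known as protein targeting to glycogen (NM_016854, chromosome 19, 36731731 to 36736604), was at 16.5, 38.6, 14.3, 73.6 and 32.2 CPM in GRflox livers and 34.6, 42.8, 45.1, 42.0 and 63.1 in GRMAC. Both extremes of the 10 libraries, 5.14-fold apart, were GRflox libraries. With 0.38 ± 0.44 its interval was the widest of the 9, from −0.63 to 1.38 on the log2 scale (adjusted p = 0.727, edgeR). The fitted difference was 0.84 without GRflox 4 (adjusted p = 0.243, edgeR) and 0.18 without GRflox 3 (adjusted p = 0.883, edgeR).

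Bases upstream of 2 start sites are shown for the gene with the largest log2 fold change, Ppp1r3g (chr13:35967656-35967905, plus strand), and the gene with the largest spread, Ppp1r3c (chr19:36736605-36736854, minus strand). Both are RefSeq sequences of build GRCm38.p6, 250 bases long and 5′ to 3′ up to the base before the RefSeq start, with matches to the searched motifs in capitals. RefSeq promoters were matched for 7 of the 9 genes, without Gys2 and Ppp1r3b.
Ppp1r3g: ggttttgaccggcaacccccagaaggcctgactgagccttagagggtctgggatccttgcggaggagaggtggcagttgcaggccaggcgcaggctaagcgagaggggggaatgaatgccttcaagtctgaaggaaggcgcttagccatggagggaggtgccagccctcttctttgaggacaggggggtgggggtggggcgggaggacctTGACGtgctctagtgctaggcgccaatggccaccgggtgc
Ppp1r3c: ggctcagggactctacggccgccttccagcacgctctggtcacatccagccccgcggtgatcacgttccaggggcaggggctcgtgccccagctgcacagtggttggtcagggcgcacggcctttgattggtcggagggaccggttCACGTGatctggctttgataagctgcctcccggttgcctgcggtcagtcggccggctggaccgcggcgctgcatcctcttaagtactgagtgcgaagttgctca
Searched on both strands were the core of the glucocorticoid response element ACANNNTGT, the cAMP response element TGACGTCA and its half-site TGACG, the E-box CACGTG, the forkhead element TGTTTAC and the TATA box TATAAA, where the half-site lies within the full cAMP element. Ppp1r3g held TGACG, 40 to 36 bases before the start, and 17.8% of all 32851 promoter windows of this length hold that motif. Ppp1r3c held CACGTG, present in 6.02% of windows. Neither window held ACANNNTGT, which 5.84% of windows have. A match is a run of letters and not a shown binding site. The GENCODE gene model of Ppp1r3g begins farther upstream, at 35958839, and that of Ppp1r3c begins at 36736653, inside the window shown.

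**Figure D2:**
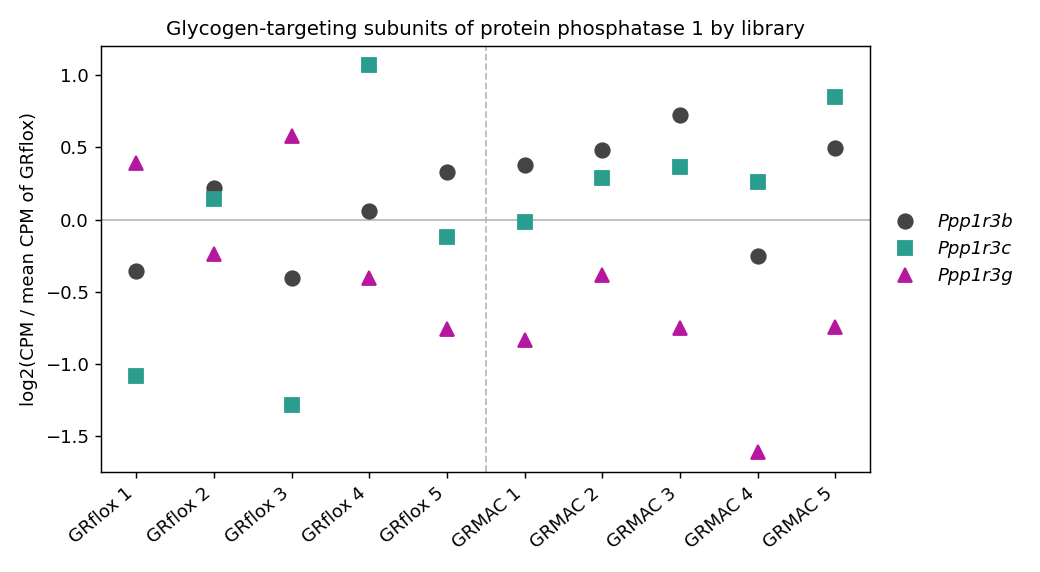
Level of the 3 targeting subunit genes in each library (horizontal axis) as log2 of CPM over the GRflox mean (vertical axis), with the genotypes on either side of the dashed line. GRflox 1 and GRflox 3 have the highest Ppp1r3g and the lowest Ppp1r3b and Ppp1r3c of the 10 libraries, and GRMAC 4 has the lowest Ppp1r3g.

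The 3 targeting subunit genes varied more between libraries of one genotype than the enzymes did. Within genotypes the SD of log2 CPM was 0.71 for Ppp1r3c, 0.51 for Ppp1r3g and 0.35 for Ppp1r3b, which stood at the 98.6, 94.6 and 85.6 percentile of all tested genes (median SD 0.16). Ugp2 (0.24), Gbe1 (0.19), Gys2 (0.19) and Phka2 (0.17) lay closer to that median. Pygl (0.12) and Phkg2 (0.09) lay below it, at the 32.0 and 16.4 percentile. The smallest count of Ppp1r3g, 238, has a counting error of 6.48%.

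GRflox 1 and GRflox 3 combined the highest Ppp1r3g with the lowest Ppp1r3b and Ppp1r3c. Per kilobase of transcript, Ppp1r3b RNA was 1.87 to 7.87 times Ppp1r3g RNA in GRflox and 6.75 to 10.3 times in GRMAC, with means of 4.44 ± 2.47 and 8.81 ± 1.34 (SD, n = 5). All levels per kilobase take the counts as reads on exons, and whether intronic reads were counted is not given in the sources used here. The ranges overlap, and the pair was chosen after its values were seen, so no test is given.

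Relations of the targeting subunits to Gys2 and Pygl were examined as 6 pairs over the 10 libraries, on log2 CPM with each genotype's mean removed. By Pearson's r over all 10 the largest was that of Ppp1r3c with Gys2 (r = −0.465, permutation p = 0.321, adjusted p = 0.385; Spearman's rho = −0.37, permutation p = 0.376, adjusted p = 0.564), with r = −0.395 after leaving out GRflox 3 and GRflox 4, the libraries farthest out. By rho it was that of Ppp1r3g with Gys2 (rho = 0.43, permutation p = 0.26, adjusted p = 0.564; r = 0.452, permutation p = 0.245, adjusted p = 0.385), with r = 0.281 without GRflox 5 and GRMAC 4. Ppp1r3b with Gys2 had r = −0.418 (permutation p = 0.243, adjusted p = 0.385; rho = −0.382, permutation p = 0.294, adjusted p = 0.564) and −0.739 without GRflox 3 and GRMAC 4. In these pairs with Gys2 the libraries left out were those farthest out for the targeting subunit. Without GRflox 1 and GRflox 5, farthest out for Gys2, r with Gys2 was −0.103 for Ppp1r3b, −0.309 for Ppp1r3c and 0.0809 for Ppp1r3g. For the 3 pairs with Pygl r ran from 0.0773 to 0.439, with adjusted permutation p of 0.385 to 0.84. It ran from −0.457 to 0.42 without the libraries farthest out for the targeting subunit. Among all 36 pairs of the 9 genes the lowest p for Pearson's r was that of Ugp2 with Phka2 (r = 0.637, permutation p = 0.0529, adjusted p = 0.824; rho = 0.673, permutation p = 0.0506, adjusted p = 0.607), with r = 0.287 without GRflox 4 and GRflox 5. The lowest p for rho was that of Gbe1 with Ugp2 (rho = 0.745, permutation p = 0.0309, adjusted p = 0.607; r = 0.397, permutation p = 0.43, adjusted p = 0.824), with r = 0.565 without GRflox 1 and GRflox 3. With 5 libraries in each genotype, r was not computed within a genotype.

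The tested genes most like each member over the 10 libraries, by Pearson's r of the same deviations, had r of 0.90 to 0.96, picked as the top 3 of all genes and given with no test. They were Usp2, Zap70 and Ints1 for Ppp1r3b (r = 0.96, 0.939 and 0.932), and Pacrgl, Nsmce2 and Rpl13 for Ppp1r3g (0.952, 0.95 and 0.932). For Ppp1r3c they were 2210408I21Rik, Cul7 and Isoc1 (0.94, 0.928 and 0.918). Gys2 was closest to Fam20a (0.953), Pygl to Slc9a3r2 (0.951), Gbe1 to Cox5a (0.95), Ugp2 to C2 (0.959), Phka2 to Gpn1 (0.959) and Phkg2 to Aspdh (0.954).

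Levels were compared between genes per kilobase of the GENCODE transcript matched to each row. In GRflox liver Pygl was highest, at 99.0 ± 4.92 CPM per kb, followed by Gys2 (73.8 ± 11.8) and Ugp2 (67.9 ± 15.4), which did not differ beyond their spread. Ppp1r3b (44.1 ± 9.90) and Gbe1 (27.9 ± 5.20) came next. Ppp1r3c (12.9 ± 8.77) and Ppp1r3g (11.9 ± 4.58) lay within each other's spread, and Phkg2 (10.003 ± 0.696) lay within the spread of both. Phka2 was lowest (4.37 ± 0.466). In GRMAC liver the order was the same except that Phkg2 (9.32 ± 0.496) stood above Ppp1r3g (6.75 ± 1.88).

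**Figure D3:**
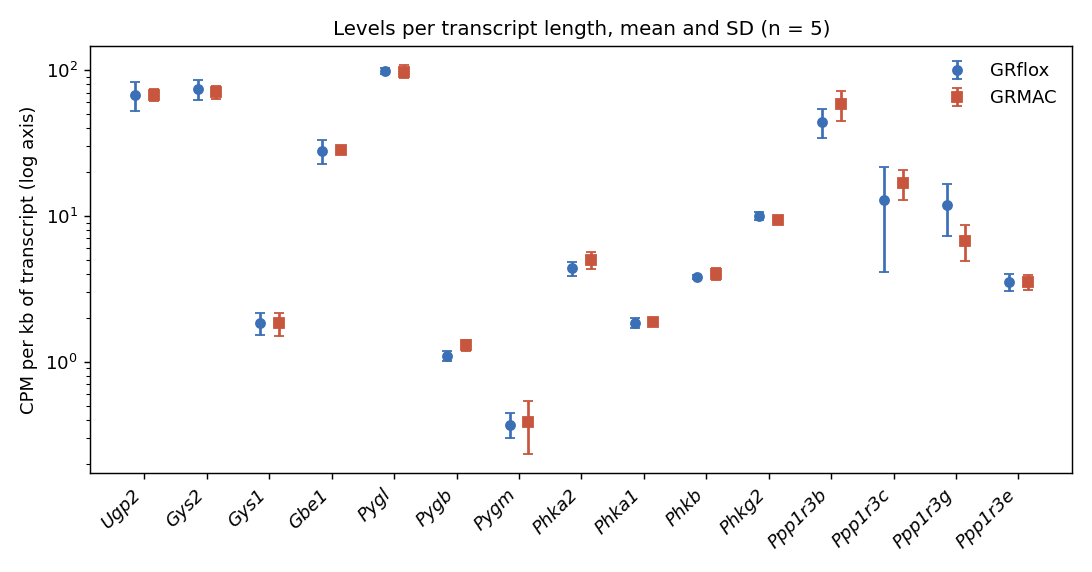
Mean level per transcript length (CPM per kb, log axis) with SD over 5 libraries for members and related genes of glycogen metabolism in GRflox and GRMAC liver. Gys2 and Pygl lie far above the muscle and brain isozymes Gys1, Pygb and Pygm in both genotypes.

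The liver isozymes dominated. Per transcript length Gys2 was 41.0 ± 9.99 times Gys1, the muscle-type synthase, in GRflox and 39.0 ± 7.17 times in GRMAC (SD, n = 5). Pygl was 90.5 ± 6.82 and 75.2 ± 8.34 times Pygb, the brain phosphorylase, and 279.3 ± 80.5 and 271.9 ± 66.9 times Pygm, the muscle phosphorylase. Phka2 exceeded Phka1, the muscle-type alpha subunit, by only 2.37 ± 0.329 and 2.69 ± 0.358 times. Between the genotypes the log2 fold change was 0.25 ± 0.11 for Pygb (adjusted p = 0.267), −0.0039 ± 0.14 for Gys1 and 0.06 ± 0.26 for Pygm (edgeR).

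Of 29 further genes of glycogen metabolism, such as glycogenin, the synthase kinases and the phosphatase subunits, 24 were tested and 0 passed with edgeR (background 0.175%), with a median log2 fold change of 0.0034. Gsk3a, a kinase that inactivates glycogen synthase, was at 72.2, 71.9, 74.4, 66.7 and 73.1 CPM in GRflox livers and 61.9, 64.7, 62.9, 62.2 and 61.1 in GRMAC. All GRMAC libraries were below all GRflox libraries (−0.20 ± 0.05, adjusted p = 0.0864, edgeR, and p = 0.00794 by exact permutation test, the smallest possible). Gsk3a was at −0.20 in the authors' deposited table (adjusted p = 0.00817), where 3.33% of genes passed. Its paralog Gsk3b was at 0.07 ± 0.06 (adjusted p = 0.621, edgeR).

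Gaa, the lysosomal glucosidase that degrades glycogen outside the phosphorylase route, was at 150.4 to 173.0 CPM in GRflox livers and 126.4 to 146.1 in GRMAC, again without overlap (−0.21 ± 0.06, adjusted p = 0.112, edgeR). In the authors' deposited table it was at −0.22 with an adjusted p of 0.0209 (background 3.33%). Groups that do not overlap were seen for these 2 of the 24 genes, beside 4.06% of all tested genes.

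Of 19 genes of glucose entry, trapping and release, 18 were tested and 0 passed with edgeR (median log2 fold change 0.04). Slc37a4, the glucose-6-phosphate transporter, was at −0.19 ± 0.10, and the hexokinase genes Hk3 and Hk2, at few CPM, at 0.37 ± 0.12 and 0.49 ± 0.26, with adjusted p of 0.167 to 0.373 for the 3 genes (edgeR). For Hk3 all GRMAC libraries were above all GRflox libraries (exact permutation test, p = 0.00794). It was the 1 gene of the 18 whose groups did not overlap, beside 4.06% of all tested genes. G6pc, the glucose-6-phosphatase that releases glucose from the liver, named after its values were seen, was at −0.51 ± 0.31 (adjusted p = 0.464, edgeR).

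Among 29 genes that carry hormonal and kinase signals to glycogen metabolism, 28 were tested and 1 passed, as lower in GRMAC (background 0.0557%). It was Irs1, which links the insulin receptor to PI3 kinase (36.5 to 41.5 CPM in GRflox livers and 27.0 to 33.9 in GRMAC, −0.40 ± 0.07, adjusted p = 0.0432, edgeR). All GRMAC libraries were below all GRflox libraries (exact permutation test, p = 0.00794). Groups that do not overlap were seen for 2 of the 28 genes, Irs1 among them, beside 4.06% of all tested genes. The authors' deposited table gives Irs1 −0.40 with an adjusted p of 0.000112, where 3.33% of genes passed. With edgeR the call was lost in 9 of the 10 fits that left out 1 library (log2 fold change −0.45 to −0.36, adjusted p from 0.0123 to 0.106), all but the one without GRMAC 5. Over all 20 alternative fits it was kept in 8. The median of the 28 was −0.0075. The glucagon receptor gene Gcgr was at −0.18 ± 0.10 and Irs2 at 0.0009 ± 0.25, both named after their values were seen (adjusted p = 0.414 and 0.999, edgeR).

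**Figure D4:**
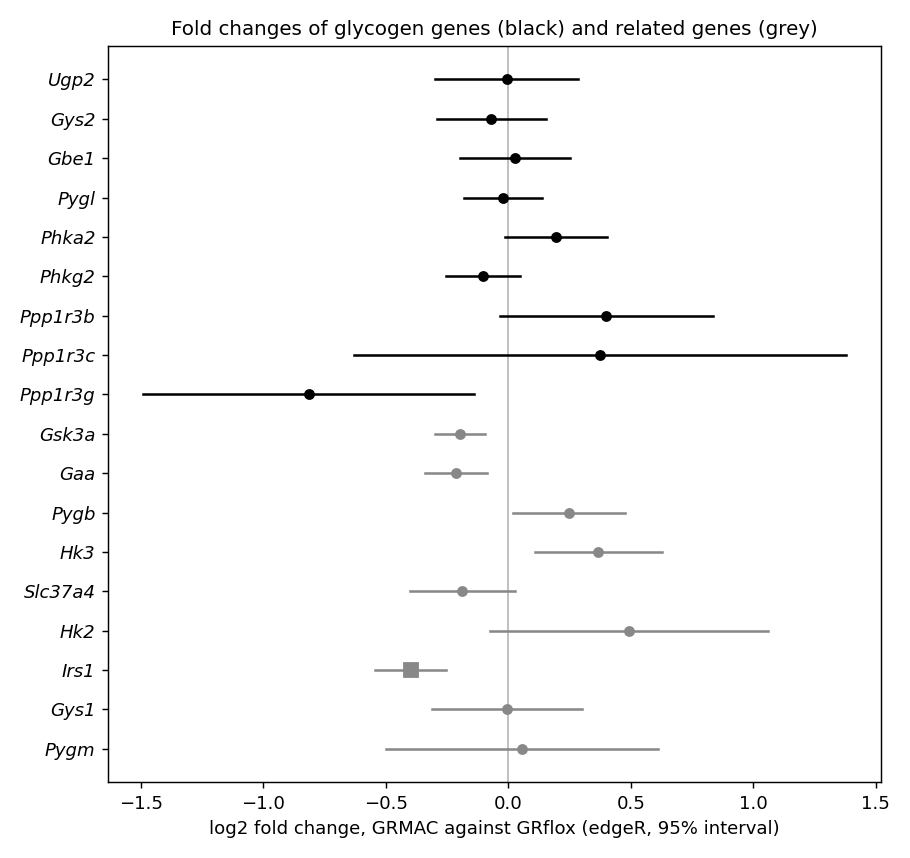
Log2 fold changes of GRMAC against GRflox (horizontal axis, edgeR) with 95% intervals for the 9 glycogen genes (black) and related genes (grey), where the square marks an adjusted p under 0.05. Irs1 is the square at −0.40, and the intervals of Ppp1r3g and Ppp1r3c are wide beside those of Gys2 and Pygl.

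No marker of the hepatocyte zones passed the test. Of 8 pericentral markers 0 passed with edgeR (4 positive and 4 negative, median −0.00088, summed level 8777 to 10990 CPM in GRflox livers and 7877 to 11560 in GRMAC), and of 7 periportal markers 0 passed (3 positive and 4 negative, median −0.04, 2146 to 2587 and 2081 to 2332 CPM). Unadjusted p were under 0.05 for 1 gene of each list, Oat (−0.28 ± 0.11) and Hsd17b13 (−0.19 ± 0.08). The background was 16.3% in either direction and 7.75% for lower values in GRMAC. Of 8 Kupffer cell markers 0 passed (6 positive and 2 negative, log2 fold changes from −0.85 to 0.55). An unadjusted p under 0.05 was seen for 1 of them, higher in GRMAC (background 16.3% in either direction). Groups did not overlap for 1 of them (background 4.06%). Their summed level was 201.8 to 270.5 CPM in GRflox livers and 238.5 to 347.3 in GRMAC, and its part in the values above was not tested.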

How the data were processed

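The authors deposited 1 table of read counts per gene for the 10 libraries, as whole numbers. Alignment and testing tools are HISAT2 2.1.0 and DESeq2 1.24.0 on build mm10, per the submitters' processing notes. Counting program, strand setting and the handling of introns are not given in the sources used here. The authors' own log2 fold changes and adjusted p-values stand in another deposited table, per the file headers; its 10 columns of values per library were not used.

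Columns were matched to samples by genotype and number in the titles. Genes were filtered with filterByExpr (12558 of 19764 kept, 0.0348% of counts removed), scaled by TMM and tested with edgeR 4.0.16 (quasi-likelihood, robust, R 4.3.3), with Benjamini-Hochberg adjustment over all tested genes and a threshold of 0.05. Standard errors are the absolute log2 fold change over the square root of F. Single values were compared with two-sided exact permutation tests over 252 assignments, whose smallest p is 0.00794. Correlations used log2 CPM with a prior count of 2 and 100000 permutations within genotype. Transcript lengths were taken from GENCODE M21 (all 9 genes matched) and coordinates from the count table, with the first base counted as 1. Library totals were 23258884 to 27692528 counts.

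The 9 genes and the lists were chosen with earlier results of these data known. Named are the 9 genes and the isozymes Gys1, Pygb and Pygm. From each related list the genes past the threshold are named, or else the 4 with the lowest p. Of the genes most like the 9, the top 3 are named for each targeting subunit and only the closest for each other gene. Others are said to be named after their values were seen. Single-gene values for 2 genes of the related lists are not reported here. Alternatives were DESeq2 1.42.0, limma-voom (limma 3.58.1), other scalings and filters, no robust estimation, a replicate block, leaving out libraries, and a correction for GC content and length. The fits were also run on simulated counts with planted fold changes, which checks the code and not the results given here.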

Additional observations from a re-analysis of the deposited data

Results flagged for a closer look

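A single library stood far apart from the rest of its genotype in 2 of 42 sets of 5 values, and chance gives about 1 in 20. Gaa was at 173.0 CPM in GRflox 5, against 150.4 to 155.9 CPM in the other GRflox libraries. Pygm was at 1.89 CPM in GRMAC 5, against 0.847 to 0.96 CPM in the other GRMAC libraries. None of the 9 glycogen genes had such a value.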

How the results depend on the processing

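The count of glycogen genes past the threshold was 0 under every alternative run. Ppp1r3g (−0.95 to −0.62), Ppp1r3b (0.31 to 0.54), Ppp1r3c (0.18 to 0.87), Phka2 (0.12 to 0.28) and Phkg2 (−0.12 to −0.06) kept their sign in all 20 fits. The fold changes near 0 did not. Ugp2 was at 0.016 with limma-voom, 0.012 with library totals only and 0.18 without GRflox 4 and GRMAC 4 together, and Gbe1 at −0.019 with the GC and length correction. Gys1 was at 0.020 with library totals only and 0.017 with that correction. Gsk3a and Gaa kept their sign in all 20 fits, and with that correction were at −0.16 (adjusted p = 0.21, edgeR) and −0.18 (adjusted p = 0.186, edgeR). Without GRflox 4 and GRMAC 4 together, Pygl was at 0.038 and Pygm at −0.010. Leaving out 1 library gave −0.13 to 0.019 for Gys2, −0.062 to 0.021 for Pygl, −0.033 to 0.14 for Gbe1, −0.087 to 0.14 for Ugp2, −0.11 to 0.091 for Gys1, −0.22 to 0.14 for Pygm and −0.099 to 0.077 for the log2 ratio of Gys2 to Pygl. Without the 2 libraries farthest out for the targeting subunit, r of Ppp1r3g with Pygl went from 0.0773 to −0.457. That of Ppp1r3b with Gys2 went from −0.418 to −0.739. Without the 2 farthest out for Pygl or Gys2 instead, these r were −0.399 and −0.103. The 22 genes of the whole table became 424 with DESeq2, 8 with limma-voom, 34 without a filter, 8 without robust estimation, 68 without GRflox 4 and GRMAC 4, 9 with the GC and length correction (added after the data were seen), 241 at adjusted p under 0.1, and 5 to 47 without 1 library; the cause was not tested. The 1 gene of the related lists past the threshold, Irs1, became 3 with DESeq2 and 0 with limma-voom, without robust estimation or without GRflox 4 and GRMAC 4, and 0 to 1 without 1 library.

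The labels do not state that same-numbered libraries are pairs, so the numbers were not taken as pairs. Same-numbered libraries correlated above 0.1 in only 2 of 5 numbers (−0.108 to 0.173 in all), which cannot show whether animals were paired. In each genotype 2 of 5 libraries correlated best with their own number in the other genotype. With the replicate block 81 genes passed and none of the 9; Ugp2 was at 0.017. With the block and the GC and length correction, 76 passed, Gbe1 was at −0.0018 and Gys1 at 0.017. The smallest counts of Ppp1r3g (238) and Phkg2 (348) have counting errors of 6.48% and 5.36%. The spread of Phkg2 between libraries (coefficient of variation 6.96% in GRflox and 5.32% in GRMAC) was close to its counting error, so depth limits the precision for that gene.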
